A study of Mus musculus with 6 samples.

Results

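The data describe 10 genes of the G1 phase machinery: the D cyclins *Ccnd1*, *Ccnd2* and *Ccnd3*, their kinases *Cdk4* and *Cdk6*, the inhibitors *Cdkn1a*, *Cdkn1b* and *Cdkn2c*, and the pocket proteins *Rb1* and *Rbl2*. Members were chosen by name from a table of 54532 genes, and all 10 were among the 14801 genes that passed the filter on low counts. Cells came from the cartilage of 1-month-old C57BL/6 mice that carry *Gli1-CreERT2* and a tdTomato reporter, taken 24 h after tamoxifen. Tamoxifen activates a Cre recombinase made from the *Gli1* locus, which switches on the red protein tdTomato in the cells that use this locus at that time. The labels name the growth plate as the tissue, while the methods describe costal cartilage. Cells lacking CD45, CD31 and Ter119, which mark leukocytes, endothelium and red cells, were sorted into tdTomato+ (Gli1+) and tdTomato- (Gli1-) cells. Every animal carried the same alleles and received tamoxifen, and a Gli1- cell is any cell in the gate without red protein. RNA sequencing was done on 3 Gli1+ and 3 Gli1- libraries, numbered 1 to 3 in each population, and both populations came from the same mice.

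Cells leave G1 when D cyclins bind CDK4 or CDK6 and the kinase phosphorylates RB and its relatives, which frees E2F factors to switch on genes of DNA synthesis. The INK4 protein p18 (*Cdkn2c*) binds the kinases themselves, while p21 (*Cdkn1a*) and p27 (*Cdkn1b*) bind whole cyclin-CDK complexes. In growth plate cartilage, cyclin D1 is a known output of mitogenic signals in proliferating chondrocytes, and p21 and p57 (*Cdkn1c*) accompany their exit from the cycle.

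Totals per library were 17114101 to 18602482 counts. *Gli1* itself, which checks the sort, had 86, 104 and 152 counts in Gli1+ libraries and 14, 19 and 46 in Gli1- libraries (log2 fold change of Gli1+ over Gli1- cells, log2FC, 2.09, standard error 0.68). Chondrocyte markers summed to 8059 to 19394 CPM (counts scaled to a common library size) in Gli1+ libraries. In Gli1- libraries they summed to 6154 to 25734 CPM. All 10 of 10 were tested, but *Matn1*, named after its values were seen, was at 0 CPM in Gli1+ library 1. Gli1+ library 1 stood apart: only 15000 genes had a count in it, against 20666 to 23360 in the others. Its long transcripts were high and its GC-rich transcripts low. Between the top and the bottom quartile of transcript length, the median centred log2 CPM differed by 1.62 in that library, -1.14 in Gli1+ library 2 and -1.07 in Gli1- library 2, against 0.038 to 0.46 in the other libraries. The same difference over GC content was -1.29 in Gli1+ library 1 and 0.049 to 0.69 elsewhere. Values with these trends removed, an alternative chosen after seeing the data, therefore stand beside the results of the members below. The lists of other genes are given without this removal.

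**Figure D1:**
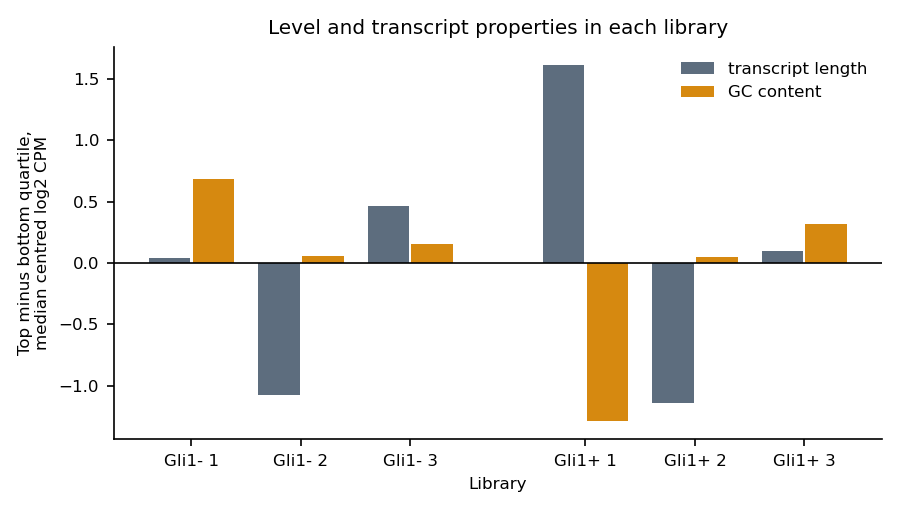
Each bar is the median centred log2 CPM of the top quartile of transcripts minus that of the bottom quartile in 1 library, by transcript length (grey) and GC content (orange). Gli1+ 1 has the highest length bar (1.62) and the lowest GC bar (-1.29), and the libraries numbered 2 have nearly equal length bars (-1.14 and -1.07).

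Of the 10 members, 7 had a higher and 3 a lower fitted level in Gli1+ cells. *Ccnd1* (log2FC 1.46), *Cdk6* (1.48) and *Ccnd3* (-1.80) were the 3 with a log2FC beyond 1 in either direction, a size that 16.7% of all genes tested had. In edgeR's quasi-likelihood test a call required an adjusted p-value under 0.05 beside a |log2FC| over 1. None of the members was called, where 0% of all genes were called, and every member had an adjusted p = 0.9999. At an unadjusted p-value under 0.05, 2 members passed, *Ccnd1* and *Cdk6*, both higher, where 3.47% of all genes passed (1.43% higher and 2.04% lower). The same 2 passed in edgeR with the library number as a block, where 8.61% of all genes did. With DESeq2 and this block, which compares Gli1+ with Gli1- within each number, *Ccnd1* alone of the members was called, where 2.89% of all genes were called (0.777% higher). The median log2FC of the members was 0.32 (0.0013 over all genes), and the median of its absolute value was 0.61 (0.40 over all genes). In sorted bulk RNA, more cells with a transcript and more transcript per cell cannot be told apart. The labels do not say which mice made up a library, so p-values measure the spread between these libraries, which may be technical.

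**Figure D2:**
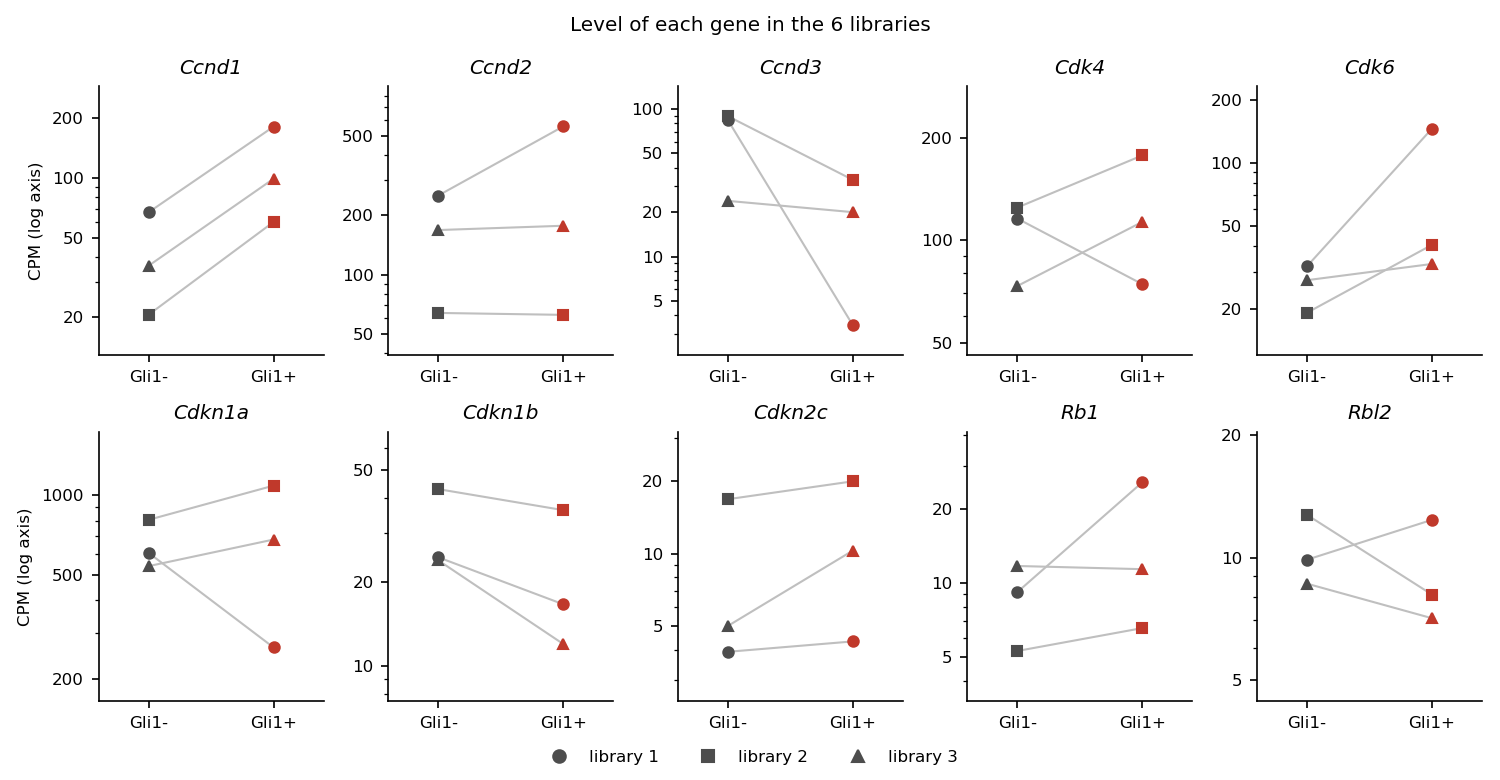
Each panel gives the level of 1 gene in CPM on a log axis, with its own range, in the 3 Gli1- (grey) and 3 Gli1+ (red) libraries, and grey lines join libraries of the same number. The 3 lines of *Ccnd1* run upward in parallel, all 3 lines of *Ccnd3* run downward at unequal slopes, and *Cdk6* is the member whose populations do not overlap.

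Cyclin D1, the D cyclin most tied to mitogenic signals, was higher in Gli1+ cells by nearly the same factor in every pair, a pair being the Gli1+ and the Gli1- library of 1 number. *Ccnd1* (ENSMUSG00000070348, chromosome 7, 144929931 to 144939925, minus strand, GRCm38) was at 181, 60.2 and 99.2 CPM in Gli1+ libraries 1 to 3 and at 67.3, 20.6 and 36.2 CPM in Gli1- libraries 1 to 3. The populations overlapped, since Gli1- library 1 lay above Gli1+ library 2, but within each number the Gli1+ library was the higher. The ratio was 2.69 in pair 1, 2.93 in pair 2 and 2.74 in pair 3. On the log2 scale these 3 ratios had an SD of 0.062, against a median SD of 0.67 over all genes, and 1.05% of genes had one as small. *Ccnd1* was also the one member with a log2 ratio over 1 in all 3 pairs, as 1.18% of genes had. Both of these counts were chosen after its values were seen. The pairs rest on the library numbers, since the labels do not say which mice made up a library. In deviations from the population means, Gli1+ library 1 correlated at 0.22 with Gli1- library 1 and at 0.27 with Gli1- library 3. The near-equal ratios, their SD and the fits with a block depend on this pairing.

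The Gli1+ mean of *Ccnd1* was 114 ± 61.8 CPM and the Gli1- mean 41.4 ± 23.8 CPM (SD, n = 3 each), and its log2FC was 1.46 (standard error 0.59, unadjusted p = 0.0381 and adjusted p = 0.9999 from edgeR). With the replicate block, edgeR gave 1.48 (standard error 0.24, unadjusted p = 0.00124, adjusted p = 0.317) and DESeq2 gave 1.47 (standard error 0.31, adjusted p = 0.000288). Without libraries 2 or 3 that DESeq2 call was lost, at 1.43 (adjusted p = 0.192) and 1.502 (adjusted p = 0.221), and without libraries 1 it was kept at 1.49. After removal of the length and GC trends, the ratios were 2.77, 3.05 and 2.59 in pairs 1 to 3, and the 3 Gli1+ libraries lay above the 3 Gli1- libraries, as in 11.1% of genes in either direction. That fit with the block, by limma, called *Ccnd1* at a log2FC of 1.48 (standard error 0.18, adjusted p = 0.0212), where 2.16% of genes were called. Without Gli1+ library 1 the log2FC in edgeR was 0.91, and without Gli1- library 1 it was 1.99. Over all alternatives the adjusted p-value ran from 2.25e-07 to 1.0.

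Cyclin D2 did not separate the populations. *Ccnd2* (ENSMUSG00000000184, chromosome 6, 127125162 to 127152193, minus strand) was at 559, 62.6 and 176 CPM in Gli1+ and at 250, 64.0 and 168 CPM in Gli1- libraries 1 to 3. In numbers 2 and 3 the populations were nearly level (ratios of 0.978 and 1.05), and in number 1 the Gli1+ library was 2.23 times as high. The log2FC in edgeR was 0.73 (standard error 0.81, adjusted p = 0.9999), and without Gli1+ library 1 it was -0.46. The transcript of *Ccnd2* is long, at the 87.5th percentile of tested coding genes, and with the length and GC trends removed the ratio in pair 1 was 1.39.

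Cyclin D3, the D cyclin best known from lymphoid cells and differentiating muscle, was the member with the lowest log2FC. *Ccnd3* (ENSMUSG00000034165, chromosome 17, 47505051 to 47599691, plus strand) was at 3.44, 33.1 and 20.01 CPM in Gli1+ and at 84.1, 89.3 and 23.9 CPM in Gli1- libraries. It was lower in the Gli1+ library of all 3 pairs, but by unequal factors, with ratios of 0.0409, 0.371 and 0.839, and the populations overlapped. Its 65 counts in Gli1+ library 1 were the fewest of any member in any library.

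The Gli1+ mean of *Ccnd3* was 18.8 ± 14.9 CPM and the Gli1- mean 65.8 ± 36.4 CPM (SD, n = 3 each). Its log2FC in edgeR was -1.80 (standard error 0.82, unadjusted p = 0.0591, adjusted p = 0.9999). DESeq2 with the replicate block gave -1.99 (adjusted p = 0.0966). Leaving out libraries 3 from that fit gave a call at -2.99 (adjusted p = 0.0143), and leaving out libraries 1 gave -0.86 (adjusted p = 0.0624). The *Ccnd3* transcript is short and GC-rich (26.9th percentile of length, 90.3rd of GC content), the kind that was low in Gli1+ library 1. With the trends removed the ratios were 0.110, 0.378 and 0.754, and the log2FC was -1.66 (standard error 0.47, adjusted p = 0.123 from limma with the block). The summed level of 8 neutrophil markers, of which 5 were tested, was 9.45 to 72.4 CPM in Gli1+ and 14.2 to 3113 CPM in Gli1- libraries, and that of 7 macrophage markers, of which 3 were tested, was 24.3 to 109 CPM and 44.9 to 730 CPM, both highest in Gli1- library 1. Without Gli1- library 1 the log2FC of *Ccnd3* was -1.59, and the part of these cells in the result was not tested.

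The mix of D cyclin transcripts in each library follows from these levels per length. Dividing CPM by the kilobases of exon listed for each gene, *Ccnd1* made up 39.2%, 55.1% and 50.1% of the summed D cyclin level in Gli1+ libraries 1 to 3 and 28.3%, 20.5% and 27.3% in Gli1- libraries 1 to 3. All Gli1+ shares lay above all Gli1- shares, with means of 48.1% ± 8.13 and 25.3% ± 4.26 (SD, n = 3 each). The share of *Ccnd3* was 7.36% ± 8.10 in Gli1+ and 25.4% ± 19.8 in Gli1- cells, and was lower in the Gli1+ library of all 3 pairs. The share of *Ccnd2* was 44.5% ± 15.9 and 49.2% ± 15.9, with no common direction. The listed exons of *Ccnd3* span 8775 bases, far more than its 2113-base coding transcript, so shares depend on the length used. Per coding transcript, *Ccnd1* made up 38.4% ± 3.27 in Gli1+ and 16.1% ± 5.83 in Gli1- cells, again without overlap. On that scale *Ccnd3* made up 17.9% ± 18.4 and 45.9% ± 25.005, the highest mean share in Gli1- cells, and *Ccnd2* 43.7% ± 20.03 and 37.97% ± 19.3. The summed level of the 3 D cyclins was 98.3, 23.2 and 42.1 CPM per kb in Gli1+ and 50.5, 21.3 and 28.2 CPM per kb in Gli1- libraries, higher in each pair, with overlap between the populations.

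**Figure D3:**
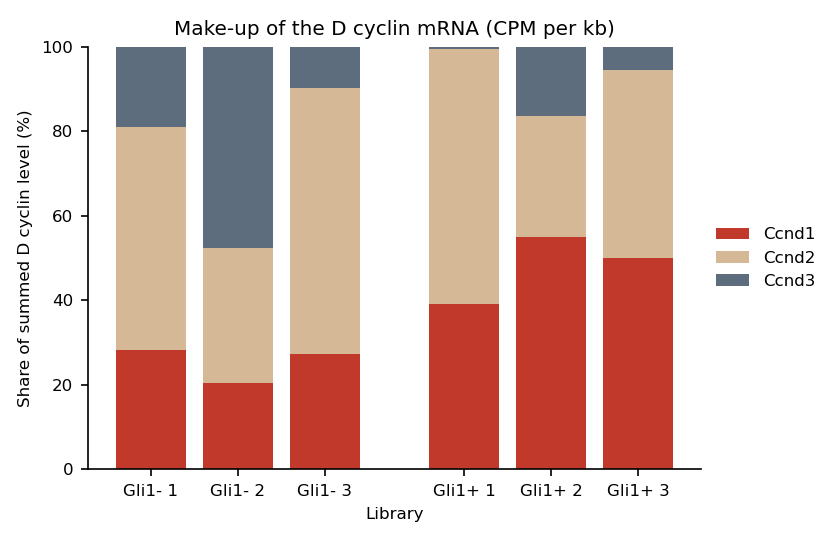
Bars give each library's summed D cyclin level (CPM per kb of listed exon) as 100%, divided into *Ccnd1* (red), *Ccnd2* (tan) and *Ccnd3* (blue-grey). The red part is 39.2% to 55.1% in Gli1+ libraries and 20.5% to 28.3% in Gli1- libraries, while the blue-grey part is highest in Gli1- 2 (47.7%) and lowest in Gli1+ 1 (0.399%).

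The kinase partners differed from each other. *Cdk4*, which per kb of listed exon was above *Cdk6* in every library, was at 74.3, 178 and 113 CPM in Gli1+ and at 116, 125 and 73.4 CPM in Gli1- libraries (ENSMUSG00000006728, chromosome 10, 127063534 to 127067920, plus strand). It was lower in the Gli1+ library of pair 1 and higher in that of pairs 2 and 3, with a log2FC of 0.22 (standard error 0.46, adjusted p = 0.9999 from edgeR). With the trends removed, the ratios of *Cdk4* were 1.08, 1.43 and 1.32 in pairs 1 to 3, with a log2FC of 0.34 in limma with the block (standard error 0.18, adjusted p = 0.353). *Cdk6*, the second kinase of D cyclins, was at 146, 40.4 and 32.7 CPM in Gli1+ and at 31.9, 19.1 and 27.3 CPM in Gli1- libraries (ENSMUSG00000040274, chromosome 5, 3341485 to 3531008, plus strand). *Cdk6* was the 1 member whose libraries did not overlap between populations, as 8.49% of all genes did not (4.04% with Gli1+ higher and 4.45% with Gli1+ lower). The gap between the lowest Gli1+ and the highest Gli1- library was narrow, 32.7 against 31.9 CPM, and the smallest p that 3 against 3 libraries allow in the exact 2-sided permutation test is 0.1, which *Cdk6* reached.

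The ratio of *Cdk6* was 4.57 in pair 1, 2.12 in pair 2 and 1.20 in pair 3. Its log2FC was 1.48 (standard error 0.63, unadjusted p = 0.0452, adjusted p = 0.9999 from edgeR) and 0.46 without Gli1+ library 1. The replicate block gave 1.18 in edgeR (standard error 0.43, unadjusted p = 0.0384). The transcript of *Cdk6* has 11525 bases, at the 98.7th percentile of length, and Gli1+ library 1 was the one in which long transcripts were high. With the trends removed, the log2FC was 0.80 (standard error 0.21, adjusted p = 0.103 from limma with the block), the ratios were 1.66, 2.18 and 1.45, and the populations overlapped. Per kb, *Cdk6* made up 14.2% ± 14.8 of the summed *Cdk4* and *Cdk6* level in Gli1+ cells, with 31.3% in Gli1+ library 1, and 5.80% ± 2.27 in Gli1- cells (SD, n = 3 each).

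The start regions of both kinases and of *Ccnd3* are shown because these partners of one complex had log2FC values as far apart as 0.22 (*Cdk4*), 1.48 (*Cdk6*) and -1.80 (*Ccnd3*). RefSeq windows (GRCm38.p6) were found for 7 of the 10 members, and none for *Ccnd1*, *Ccnd2* and *Rb1*. Each window lies before a RefSeq start, and that of *Cdk6* falls inside the span listed for the gene, which begins at 3341485. The lines give the 250 bases before the start, 5′ to 3′ on the gene's plus strand, with the E-box CACGTG, to which MYC and its partners bind, and the GC box GGGCGG, a site of SP1, on either strand, in capitals. The capitalised motifs do not overlap.
Cdk4, chr10:127063285-127063534: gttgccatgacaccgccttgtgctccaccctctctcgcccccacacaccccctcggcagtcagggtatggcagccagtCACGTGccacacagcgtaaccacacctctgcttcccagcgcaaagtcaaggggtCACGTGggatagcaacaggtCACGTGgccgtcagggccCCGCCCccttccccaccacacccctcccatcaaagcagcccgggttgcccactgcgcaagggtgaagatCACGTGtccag
Cdk6, chr5:3343643-3343892: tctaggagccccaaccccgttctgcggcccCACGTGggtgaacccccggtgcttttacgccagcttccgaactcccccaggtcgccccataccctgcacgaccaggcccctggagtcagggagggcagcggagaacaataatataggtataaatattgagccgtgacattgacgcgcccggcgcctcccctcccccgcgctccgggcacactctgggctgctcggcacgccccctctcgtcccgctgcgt
Ccnd3 upstream start, chr17:47504801-47505050: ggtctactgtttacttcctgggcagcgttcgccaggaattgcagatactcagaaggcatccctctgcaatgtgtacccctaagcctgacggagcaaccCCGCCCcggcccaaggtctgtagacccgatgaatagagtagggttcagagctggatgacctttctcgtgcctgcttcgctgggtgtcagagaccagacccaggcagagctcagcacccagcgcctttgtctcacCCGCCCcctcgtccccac
Ccnd3 downstream start, chr17:47593217-47593466: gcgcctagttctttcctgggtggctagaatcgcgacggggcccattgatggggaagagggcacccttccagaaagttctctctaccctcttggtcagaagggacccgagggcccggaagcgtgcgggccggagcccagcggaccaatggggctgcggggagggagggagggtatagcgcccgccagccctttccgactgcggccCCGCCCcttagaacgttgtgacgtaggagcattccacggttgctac

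CACGTG stood 4 times before *Cdk4* and 1 time before *Cdk6*, and in no other member's window. Of all 32851 windows of this length, 6.02% held it, and 7 windows held it 4 times or more. GGGCGG was in 6 of the 10 members' windows and in 32.7% of all windows. The starts of *Ccnd3* lie 88416 bases apart, and each has a GC box. The E2F letters TTTCGCGC, TTTGGCGC and TTTCCCGC (0.256%, 0.417% and 0.895% of all windows) and the GLI letters GACCACCCA (0.225%) were not in any of these 10 windows, searched on both strands. *Ccnd1*, *Ccnd2* and *Rb1* had no window and were not searched for any of these letters.

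Among the inhibitors, p21 was by far the most abundant and did not separate the populations. *Cdkn1a* (ENSMUSG00000023067, chromosome 17, 29090976 to 29100727, plus strand), a p53 target that blocks CDK2 and also helps to assemble D cyclin complexes, was at 264, 1089 and 679 CPM in Gli1+ and at 604, 807 and 538 CPM in Gli1- libraries. Gli1+ libraries held both the highest and the lowest value. The means were 677 ± 412 and 650 ± 140 CPM (SD, n = 3), above 98.7% of all genes tested, and the log2FC in edgeR was 0.06 (standard error 0.58, adjusted p = 0.9999). *Cdkn1a* made up 93.4% to 96.7% of the summed level per kb of the 3 inhibitors in each library. Its lowest library, Gli1+ 1, also had the lowest summed level of 10 dissociation stress markers (immediate early and heat shock genes), 2005 CPM against 6334 to 33315 CPM in the others. The part of this in the level of *Cdkn1a* was not tested.

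p27, which holds cells in G1, and p18, an INK4 inhibitor of CDK4 and CDK6, lay on opposite sides of 0 without a call. *Cdkn1b* (ENSMUSG00000003031, chromosome 6, 134920401 to 134925513, plus strand) was at 16.7, 36.1 and 12.0 CPM in Gli1+ and at 24.5, 42.9 and 23.9 CPM in Gli1- libraries, lower in the Gli1+ library of all 3 pairs (log2FC -0.50, standard error 0.53, adjusted p = 0.9999 from edgeR). *Cdkn2c* (ENSMUSG00000028551, chromosome 4, 109660876 to 109667189, minus strand) was at 4.34, 19.9 and 10.3 CPM in Gli1+ and at 3.93, 16.8 and 5.03 CPM in Gli1- libraries, higher in the Gli1+ library of all 3 pairs (log2FC 0.42, standard error 0.77, adjusted p = 0.9999 from edgeR). The populations overlapped for each gene, and the libraries numbered 2 were the highest in both. In all, 5 members kept 1 direction in the 3 pairs, namely *Ccnd1*, *Cdk6* and *Cdkn2c* (higher) and *Ccnd3* and *Cdkn1b* (lower), where 37.4% of all genes kept 1 direction (17.6% higher and 19.8% lower). With the length and GC trends removed, 8 members did: *Ccnd1*, *Cdk4*, *Cdk6*, *Cdkn2c* and *Rb1* (5 higher) and *Ccnd3*, *Cdkn1b* and *Rbl2* (3 lower), where 44.8% of genes did (22.7% higher and 22.2% lower). With the trends removed, the log2FC of *Cdkn1b* was -0.80 (standard error 0.27, adjusted p = 0.179) and that of *Cdkn2c* 0.83 (standard error 0.33, adjusted p = 0.234, both from limma with the block).

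Neither pocket protein separated the populations. *Rb1* (ENSMUSG00000022105, chromosome 14, 73183673 to 73325822, minus strand), the retinoblastoma protein that D cyclin kinases phosphorylate, was at 25.7, 6.57 and 11.4 CPM in Gli1+ and at 9.21, 5.31 and 11.7 CPM in Gli1- libraries. Its log2FC in edgeR was 0.73 (standard error 0.62, adjusted p = 0.9999), and without Gli1+ library 1 it was 0.015. *Rbl2* (ENSMUSG00000031666, chromosome 8, 91070057 to 91123844, plus strand), the pocket protein p130 of resting cells, was at 7.09 to 12.4 CPM in Gli1+ and at 8.62 to 12.7 CPM in Gli1- libraries, with a log2FC of -0.18 (standard error 0.48, adjusted p = 0.9999 from edgeR).

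**Figure D4:**
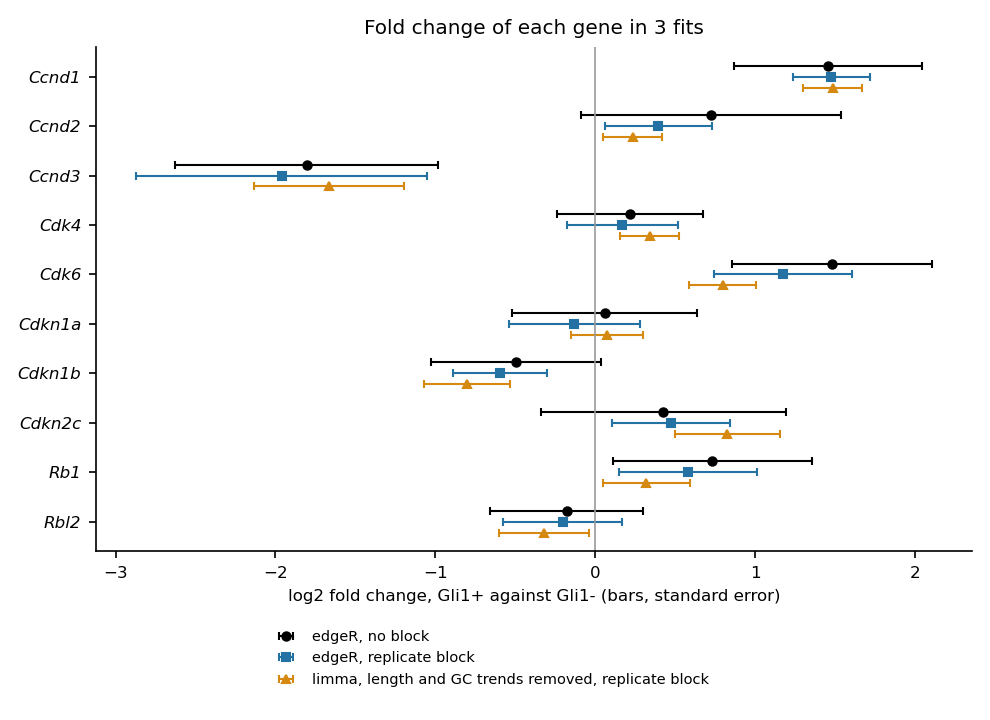
Points give the log2 fold change of each gene in Gli1+ against Gli1- cells with its standard error, in edgeR without a block (black), in edgeR with the replicate block (blue) and in limma with the block after removal of length and GC trends (orange). *Ccnd1* stays at 1.46 to 1.48 with a shrinking error, *Cdk6* moves from 1.48 to 0.80, and *Ccnd3* stays between -1.96 and -1.66.

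Ordered by mean level per kb of listed exon over the 6 libraries, the members were *Cdkn1a* (187 CPM per kb), *Cdk4* (34.9), *Ccnd2* (22.7), *Ccnd1* (16.4), *Cdkn1b* (5.72), *Ccnd3* (4.82), *Cdkn2c* (3.74), *Cdk6* (3.54), *Rb1* (1.94) and *Rbl2* (1.30). *Cdkn1a* was above *Cdk4*, and *Cdk6* above *Rb1*, in all 6 libraries. *Ccnd2* was above *Ccnd1*, and *Cdkn1b* above *Ccnd3*, in 4 libraries, and *Ccnd3* above *Cdkn2c*, and *Cdkn2c* above *Cdk6*, in 3, so the order of these neighbours changed between libraries. *Ccnd1* was above *Ccnd2* in Gli1+ libraries 2 and 3, and below it in Gli1+ library 1 and every Gli1- library. By mean level the order was not the same in both populations: *Cdk6* was 5th in Gli1+ and 8th in Gli1- cells, and *Ccnd3* was 9th and 5th. The Gli1+ rank of *Cdk6* rested on Gli1+ library 1, at 10.4 CPM per kb against 2.89 and 2.34 in Gli1+ libraries 2 and 3. *Ccnd3* was also lowest in Gli1+ library 1, at 0.392 CPM per kb against 3.77 and 2.28. Whether counting used the strand is not stated, and exons of *Cdk4* share 641 bases with *Tspan31* on the other strand, *Ccnd3* 361 with *Bysl*, *Rb1* 488 with *Rcbtb2*, *Rbl2* 693 with *Aktip* and *Ccnd1* 1100 with *LTO1*. *Bysl*, *Tspan31*, *Rcbtb2* and *Aktip* had counts of the same order as the member or more, whereas *LTO1* had 812 counts against 8591 of *Ccnd1*. How reads in shared exons were assigned is not given either, so the levels of all these members may be too high or too low.

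The genes whose centred log2 CPM profile over the 6 libraries lay nearest to that of *Ccnd1*, by root mean square difference among 8451 genes with a mean of at least 10 CPM, were *Kcnq5* (0.29), *Polr3g* (0.30) and *Usp27x* (0.31). Those nearest to *Cdk6* were *Pabpc1* (0.20), *Zeb2* (0.27) and *Tanc2* (0.28), and those nearest to *Ccnd3* were *Ctsd* (0.39), *Flot1* (0.40) and *Id3* (0.43). Gli1+ library 1 was the highest of the 6 libraries for 4 members (*Ccnd1*, *Ccnd2*, *Cdk6* and *Rb1*) and the lowest for 2 (*Ccnd3* and *Cdkn1a*), where it was the highest for 26.1% and the lowest for 36.1% of all genes, 62.2% together. Between members, *Cdk6* lay nearest to *Rb1* (0.50) and *Ccnd1* (0.51), and both *Ccnd1* and *Cdk6* were far from *Ccnd3* (2.42 and 2.41). Libraries share their length and GC trends, which enter these distances.

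The wider pathway is described by lists of genes written with earlier results known. Length and GC trends were not removed from the list values here or below, so the trends of Gli1+ library 1 enter them. Of 4 tested genes among the other inhibitors and the pocket protein p107, 1 was higher and 3 lower in Gli1+ cells (median log2FC -0.92). *Cdkn1c*, the imprinted gene of p57, a brake of chondrocyte proliferation, was at 11.5, 24.01 and 3.94 CPM in Gli1+ and at 58.3, 186 and 17.4 CPM in Gli1- libraries. It was lower in the Gli1+ library of every pair, with a log2FC of -2.73 (standard error 0.95, unadjusted p = 0.0203, adjusted p = 0.9999 from edgeR), and was called lower by DESeq2 with the replicate block (adjusted p = 6.83e-09). *Cdkn2d*, the INK4 gene of p19, had a log2FC of -1.77 (standard error 1.08) and was called lower in the same DESeq2 fit (adjusted p = 0.0175). *Rbl1*, the gene of p107, had a log2FC of 1.19 (standard error 0.58, unadjusted p = 0.0738 from edgeR). *Cdkn2a* was left out by the filter.

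Partners further along the pathway had medians above 0 without calls in edgeR. Of 8 genes of cyclin E, CDK2 and CDK activators, 7 were higher (median log2FC 0.35), and *Ccna2*, the S phase cyclin A, had an unadjusted p = 0.0449 (log2FC 1.97, edgeR). The most abundant, *Cdk7*, *Cdc25a* and *Mnat1*, had log2FC values of 0.41, 0.18 and -0.16. Of 10 E2F and DP factors, which pocket proteins hold, 8 were higher and none passed the unadjusted test (median 0.38). *E2f4*, *E2f5* and *Tfdp1*, the most abundant of them, had log2FC values of 0.35, 0.42 and 0.38. Of 9 subunits and partners of MuvB, the complex that *Rbl2* joins in resting cells, 5 were higher (median 0.49), with *Mybl1* at an unadjusted p = 0.0323 (log2FC 1.72, edgeR), while the abundant *Lin54*, *Rbbp4* and *Dyrk1a* had 0.49, -0.082 and -0.27. Of 18 E2F targets of S phase, 14 were higher (median 0.30), among them the helicase subunit *Mcm4* (log2FC 1.09) and the methylation cofactor *Uhrf1* (1.21), both at an unadjusted p-value under 0.05 in edgeR, where *Pcna*, *Mcm6* and *Mcm7*, the most abundant, had 0.17, -0.42 and 0.32. Of 14 genes of D cyclin and p27 turnover, 9 were higher (median 0.20), and none passed the unadjusted test. Its most abundant genes, *Ddb1*, *Cul1* and *Skp1a*, had 0.071, 0.19 and 0.29.

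Of 20 listed mitosis markers, 17 passed the filter on low counts. In the edgeR fit without a block, all 17 had a log2FC above 0 (median 1.04 against 0.0013 over all genes). Of the 17, 4 (*Mki67*, *Top2a*, *Cenpe* and *Tpx2*) had an unadjusted p-value under 0.05 in edgeR, where 1.43% of all genes did on the higher side. In 11 of the 17 the Gli1+ library was the higher in all 3 pairs, as in 17.6% of all genes. DESeq2 with the block called 3 of the 17 higher, where it called 0.777% of all genes higher. These were *Mki67* (adjusted p = 0.00224), *Top2a* (adjusted p = 0.0037) and *Cdk1* (adjusted p = 0.0433, named after its values were seen). In the same fit 3 of the 17 (*Plk1*, *Cenpa* and *Ccnb2*, named after their values were seen) had a log2FC below 0. The median centred log2 level of the list was 0.070, 1.48 and -0.25 in Gli1+ and -0.83, 0.19 and -0.94 in Gli1- libraries, so the populations overlapped. *Mki67*, made by cycling cells, was at 23.1, 22.3 and 15.2 CPM in Gli1+ and at 4.96, 3.58 and 6.19 CPM in Gli1- libraries, without overlap (log2FC 2.04, standard error 0.47, unadjusted p = 0.00253, adjusted p = 0.9999 from edgeR). *Top2a*, *Cenpe* and *Tpx2*, which act on chromosomes and the spindle, had log2FC values of 2.13, 3.07 and 1.30. *Cenpe* was near the floor and passed the filter only through its Gli1+ libraries. It was at 4.71, 3.19 and 0.735 CPM in Gli1+ and at 0.259, 0.332 and 0.423 CPM in Gli1- libraries, so its fold change and p-value carry little weight. *Cenpe* is nevertheless among the 17, the 4 and the 11 counted above. Those counts describe the list, and no set test was run on it. Of 19 p53 targets, the family to which *Cdkn1a* belongs, 8 were higher and 11 lower (median -0.076). *Plk2* had a log2FC of 0.84, *Btg2* of -0.076 and *Gadd45a*, a stress gene, of -1.70 (standard errors 0.50, 0.69 and 1.10), and DESeq2 with the block called *Gadd45a* lower (adjusted p = 3.34e-06). These lists include stress genes that cell isolation can induce, and the summed level of the dissociation markers named above was lower in the Gli1+ library of every pair, as 7 of its 10 genes were. Their part in these values was not tested.

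**Figure D5:**
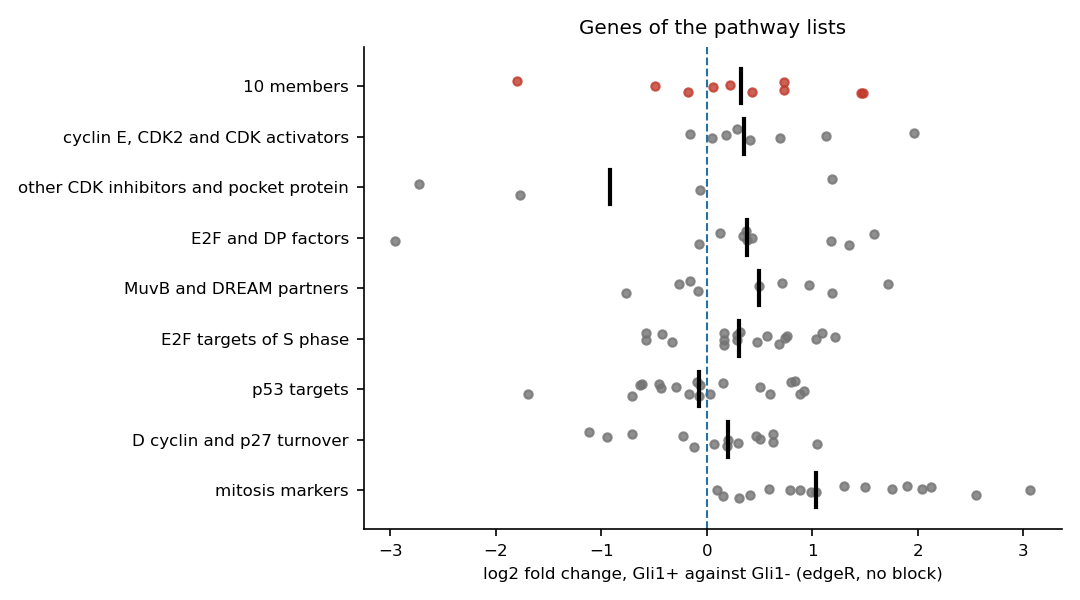
Each point is 1 tested gene, placed by its log2 fold change in Gli1+ against Gli1- cells in edgeR without a block (vertical jitter has no meaning), for the 10 members (red) and 8 lists (grey), with the median as a black bar and that of all genes as a dashed line. All 17 mitosis markers lie above 0, and the members spread from -1.80 to 1.48.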

How the data were processed

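Poly(A) RNA of 3 Gli1+ and 3 Gli1- libraries was sequenced. The authors deposited 1 table of raw counts per gene, and per the submitters' processing notes HISAT2 2.0.5, featureCounts 1.5.0-p3 and mm10 were used. The use of strand is not given in the sources used here. Genes with few counts were removed with filterByExpr (minimum count of 10), libraries were scaled by TMM, and the quasi-likelihood test of edgeR 4.0.16 (R 4.3.3) was run over 14801 genes with Benjamini-Hochberg adjustment. A call required an adjusted p-value under 0.05 beside a |log2FC| over 1. CPM use the scaled totals, with a prior count of 2 on the log2 scale. A standard error is the log2FC over the square root of F. DESeq2 1.42.0 and limma 3.58.1 served as alternatives. The tests were also run on simulated data with less spread between libraries than here and no effect of library number. That run does not show how the tests behave at the spread of these libraries.

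The methods describe a sort of each population from the same animals, and the labels give each a number. The numbers were taken as pairs. Within a number, the deviations from the means of the populations correlated over genes at 0.22, 0.72 and 0.47. Gli1+ library 1 was at 0.27 with Gli1- library 3. The libraries numbered 2 shared a length trend (-1.14 and -1.07), which enters their correlation, so these values do not establish the pairs.

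Length and GC trends were removed with a lowess span of 0.3 on the longest coding transcript in GENCODE M21, which 12852 tested genes have. The members, lists and tests were chosen with earlier results of these data known. Genes were named by a fixed rule: all members, *Gli1*, *Mki67*, the 3 most abundant tested genes of a list, list genes at an unadjusted p-value under 0.05, and the 3 nearest genes of 3 members. Any gene outside it is marked as picked with its values known, or is an opposite-strand neighbour. All 6 count columns were used.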

Additional observations from a re-analysis of the deposited data

How the results depend on the processing

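In edgeR with the replicate block, 0 genes and 0 members were called, as without it, and *Ccnd1* (unadjusted p = 0.00124) and *Cdk6* (0.0384) again passed unadjusted. Of all genes, 267 were called with no filter on low counts, 30 by DESeq2, 428 by DESeq2 with the block, and 277 by limma with trends removed and the block. The last 2 fits each called 1 member, *Ccnd1*. Leaving out libraries 1, 2 or 3 from DESeq2 with the block, chosen after seeing the data, gave 781, 174 and 71 genes and 0 to 1 members (*Ccnd1* without libraries 1, *Ccnd3* without libraries 3). In all, 203 of 220 member values under 22 alternatives kept their direction and side of the threshold, 4 were newly called and 13 turned direction. With each library left out in turn, edgeR gave -0.46 to 1.19 for *Ccnd2*, -0.17 to 0.45 for *Cdk4*, -0.47 to 0.42 for *Cdkn1a* and -0.24 to 1.34 for *Cdkn2c*. Below 0, *Ccnd2* was at -0.46 without Gli1+ library 1 and *Cdkn2c* at -0.24 without Gli1+ library 2. *Cdk4* was at -0.17 without Gli1+ library 2, and at -0.023 and -0.053 in DESeq2 with the block without libraries 2 and 3. *Cdkn1a* was at -0.14 in limma-voom, -0.13 and -0.14 in edgeR and DESeq2 with the block, -0.47 without Gli1+ library 2, -0.058 without Gli1- library 3, and -0.44 and -0.37 in DESeq2 with the block without libraries 2 and 3. *Rbl2* was at 0.0073 in DESeq2 with the block without libraries 2. As shares of counts without length, *Ccnd1* made up 32.2% of D cyclin counts in Gli1+ and 14.8% in Gli1- cells, and *Cdk6* 35.7% and 20.7% of *Cdk4* and *Cdk6* counts. Per coding transcript, the *Ccnd1* shares were 38.4% and 16.1%. The cause was not tested, except that shares move by the lengths used. With 3 libraries a population, a spread such as that of *Ccnd3* leaves even large ratios uncalled.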

Other observations

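Markers of cartilage zones are given as values, and the single genes were chosen after their values were seen. The summed level of 5 superficial zone markers was 200 to 344 CPM in Gli1+ and 573 to 1382 CPM in Gli1- libraries, without overlap of the sums. All 5 had a log2FC below 0, and 4 were lower in the Gli1+ library of all 3 pairs, as 19.8% of all genes were. *Thbs4* and *Abi3bp* overlapped between the populations. *Prg4*, the gene of the joint lubricant lubricin, was at 133, 79.8 and 142 CPM in Gli1+ and at 271, 194 and 373 CPM in Gli1- libraries. The summed level of 6 hypertrophic markers overlapped, at 6568 to 8329 CPM in Gli1+ and 2241 to 9557 CPM in Gli1- libraries, and 2 of the 6 had a log2FC above 0. *Mmp13*, a collagenase of hypertrophic cartilage, was at 5328, 2861 and 4859 CPM in Gli1+ and at 457, 592 and 607 CPM in Gli1- libraries, without overlap, while *Col10a1*, the collagen of hypertrophic chondrocytes, was at 34.6, 285 and 71.9 CPM against 161, 1781 and 210 CPM, lower in the Gli1+ library of every pair.

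*E2f2*, an activating E2F chosen after its values were seen, was the E2F gene with the lowest log2FC (-2.95, standard error 1.91, unadjusted p = 0.159 from edgeR). Its level was 13.2 CPM in Gli1- library 1, the library with the highest neutrophil markers, and 0 to 1.597 CPM in the other libraries. In pairs 2 and 3 the Gli1+ library was the higher (ratios of 2.19 and 3.97), and DESeq2 with the replicate block gave a log2FC of -0.33. Both ratios come from levels near the floor, 1.597 against 0.729 CPM in pair 2 and 0.210 against 0.0529 CPM in pair 3, so they fix no direction.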
